A study of Homo sapiens with 6 samples.

Results

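The comparison set HepG2 cells, a human hepatoma line that keeps many liver functions, exposed to 100 µg/ml of a Scutellaria baicalensis extract for 6 h against control cells. Each side held 1 Agilent array, so every difference is a description of these arrays and carries no p-value. Genes were members if a probe was well above background and unsaturated on both arrays, which held for 10748 of the 17488 genes with a usable probe. Levels are quantile-normalized log2 signals, and differences are the 6 h level minus the control level. The whole series held 6 arrays, the others at 1, 3, 12 and 24 h of the same dose, and asks how expression moves with time of exposure. The labels give no time of collection and no vehicle for the control, and no separate cultures.

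Scutellaria baicalensis is a plant of the mint family whose root is rich in flavones. The aryl hydrocarbon receptor (AhR) is a ligand-activated transcription factor. When a planar aromatic compound binds it, it pairs with ARNT on DNA and switches on detoxifying enzymes such as CYP1A1, and with them AHRR, which represses the receptor. Signals of growth and stress act on another time scale: transcripts of immediate early genes and of many regulators are short-lived, whereas those of most secreted liver proteins are stable.

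Both arrays carried transcripts of HepG2 identity, with 11 of 11 markers above background. Markers of blood cells were above it for 9 of 12 genes in the control and 6 of 12 at 6 h, near the shares of all spots given below. HepG2 markers held 0.713% of the signal of all named probes in the control and 1.14% at 6 h, and blood cell markers 0.0091% and 0.0035%. Markers of endothelial cells, of fibroblasts and of neurons each held 0.0262% or less on both arrays. The 6 h array was dim. The 75th percentile of its processed signal was 153 units against 768 in the control, and 50.6% of its spots were well above background against 70.5%. The 12 h array was the next dimmest, at 420 units, and those at 1, 3 and 24 h were at 1090, 1900 and 1640. Where levels at 6 h and 12 h are alike, time of exposure and dimness of the array cannot be told apart. Repeated spots of a probe within an array had an SD of 0.13 (log2) at 6 h and 0.12 in the control. For the error of a difference, the 2 brightest probes of each of 3001 genes were compared, which gave an SD of 0.73 for the difference of a single probe. Over 3 equal groups of these genes from low to high control level it was 0.83, 0.75 and 0.59. Spread among cultures, or among arrays of like cells, is not part of this error.

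At 6 h, 1570 genes were at least 2-fold higher than in the control, 14.6% of those measured, and 1248 were at least 2-fold lower, 11.6%. The median of all genes was 0.15, with quartiles of -0.44 and 0.69. Scaling to the 75th percentile gave 2472 genes higher and 1072 lower, a share of higher among the called genes of 69.8% against 55.7%, and moved the median to 0.35. At 4-fold or more, 172 genes were higher and 274 lower. In all counts of list members that follow, higher and lower mean at least 2-fold. They are to be read beside the 14.6% higher and 11.6% lower of all measured genes.

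The dim array set what could be called. The lowest level well above background was 6.02 at 6 h and 3.64 in the control. A gene with a control level up to 5.02 could therefore pass only by being at least 2-fold higher, and all 94 such genes were. Of the other 10654 genes, 1476 were at least 2-fold higher, 13.9%. A gene with a control level under 7.02 could not be called lower, and 0 of 1083 such genes were.

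**Figure D1:**
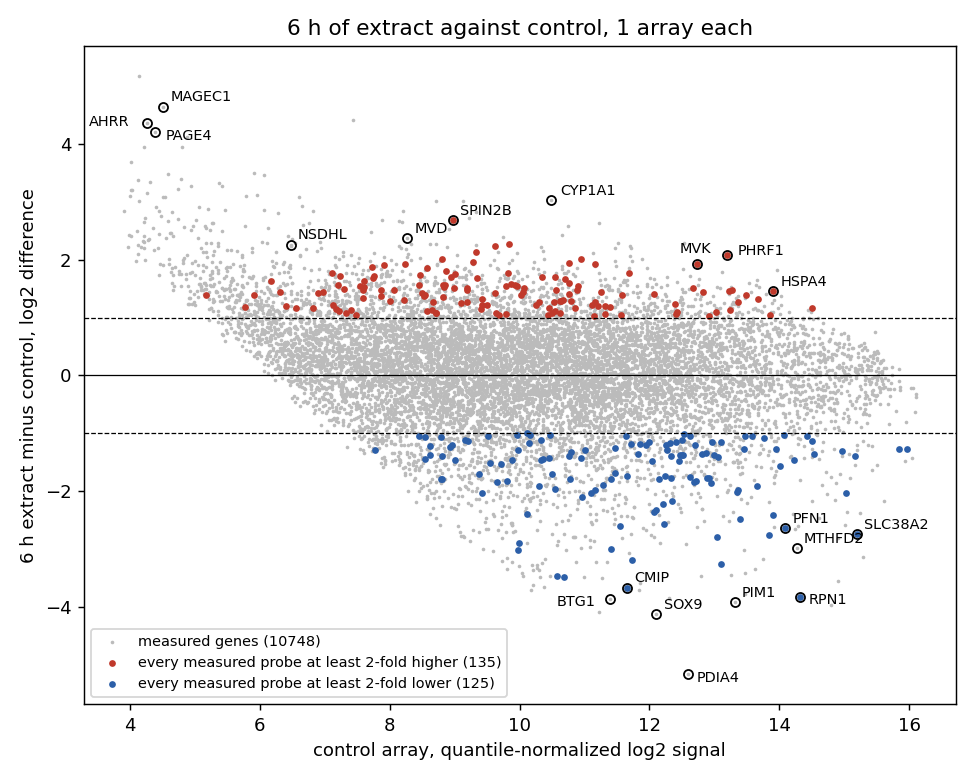
Difference at 6 h (6 h minus control, log2) against the control level (quantile-normalized log2 signal) for the 10748 measured genes, with the genes whose measured probes all lay at least 2-fold higher (135, red) or lower (125, blue). Dashed lines mark 2-fold; the empty lower left corner is the range that falls below the lowest detected level at 6 h, and PDIA4 lies lowest at -5.17.

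Most weight is given here to the 3001 genes with at least 2 measured probes. In 135 of them, 4.5%, every measured probe was at least 2-fold higher, and in 125, 4.17%, every one was at least 2-fold lower. In 53, 1.77%, a probe was at least 2-fold higher and another at least 2-fold lower. In 7 of the 135, among them MVK, KIF5A and SURF6 described further on, a probe had a control level under 5.02 and could pass only by being higher, so their direction rests on 1 other probe, and 128 genes remain without them. The brightest probe put 360 of the 3001 genes at least 2-fold higher, and in 135 of these every measured probe was. It put 381 at least 2-fold lower, and in 125 of these every measured probe was. Genes outside these counts can still have all probes on the same side, with a probe under 2-fold. Across the 3001 genes the brightest and the next probe correlated with a Pearson r of 0.41 and a Spearman rho of 0.44, given as a description. Genes are not replicates, and both probes share the 2 arrays. The other 7747 genes had a single measured probe. Genes picked from the lists and given below with 1 difference or 1 pair of levels are of this kind, with no second measured probe behind them.

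The 3 probes of RPN1 show what agreement looks like, and the 2 of HSPA5 what its lack looks like. RPN1 encodes ribophorin, a subunit of the oligosaccharyltransferase that attaches sugar chains to proteins entering the endoplasmic reticulum, and HSPA5 encodes BiP, the main chaperone there. The first 30 of the 60 bases of each probe, as the scanner files give them, are:
RPN1, difference -3.77: gtcaacaagagaataggcctttaccgtcac
RPN1, difference -3.83: gcagattgggtggtagtgggaggttgtgca
RPN1, difference -3.55: aaactcccattaaaaacaaaacatctttgt
HSPA5, difference -0.92: ttctacagcttctgataatcaaccaactgt
HSPA5, difference 1.17: ctctcactaccgtggaccacctagtctgta
RPN1 had levels of 11.67, 14.31 and 10.78 in the control and of 7.90, 10.48 and 7.23 at 6 h in this order (13.7, 14.2 and 11.7-fold lower). It ranked first among genes lowered by agreeing probes. HSPA5 went from 12.33 to 11.41 by the first probe and from 11.05 to 12.22 by the second, so no direction can be given for it.

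**Figure D2:**
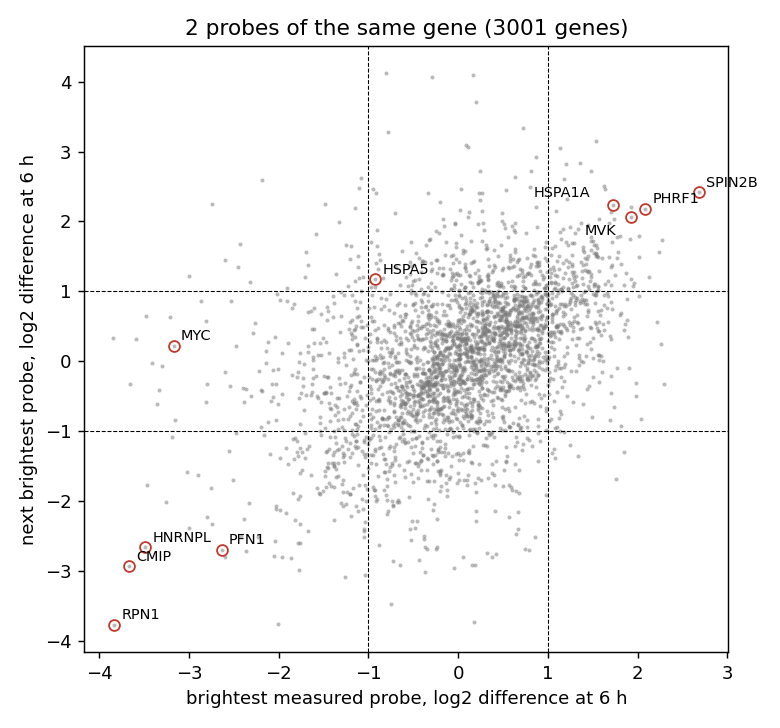
Differences at 6 h (log2) of the brightest measured probe (horizontal) and the next brightest (vertical) of 3001 genes, with dashed lines at 2-fold. RPN1, CMIP, HNRNPL and PFN1 lie low on both axes and SPIN2B, PHRF1 and MVK (whose next probe could pass only if higher) high on both, whereas MYC (-3.17 and 0.22) and HSPA5 (-0.92 and 1.17) lie where probes disagree.

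CYP1A1 and AHRR, the genes that mark AhR activity, were among the most raised. CYP1A1, a cytochrome P450 that oxidises aromatic compounds, had a level of 10.48 in the control and 13.51 at 6 h, a difference of 3.03 (8.14-fold) by its single probe. It stood at 10.96, 13.37, 14.02 and 13.86 on the 1, 3, 12 and 24 h arrays, so the arrays from 3 h on were all high. AHRR was at 4.26 in the control and 8.63 at 6 h, and its second probe, not above background in the control, went from 3.34 to 6.71. Its first probe read 4.01, 5.64, 7.82 and 6.27 on the 1, 3, 12 and 24 h arrays, and was highest at 6 h. The control level of AHRR lay under 5.02, where only a higher gene could pass, and its difference of 4.37 was 2.29 with normexp background.

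Of the other AhR targets measured, 1 was higher. UGT1A6, which joins glucuronic acid to phenols, was 1.18 higher (7.73 to 8.91), and its second probe was below background at 6 h. CYP1A2 was at -0.12 and TIPARP, an ADP-ribosyltransferase, at -0.78. NQO1, a quinone reductase, was at -0.95, and CYP1B1 was above background on neither array. HES1, a transcriptional repressor that is also a NOTCH target, was lower by both measured probes (-1.84 and -1.11), and NFE2L2, which encodes NRF2, was at -1.57. Of the 11 measured of 15 listed targets, 3 were higher and 3 lower, and their median was -0.78. The median of the list thus lay under the 0.15 of all genes.

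The promoters of the marker genes hold the core of the AhR response element, GCGTG. The 250 bases before the transcription start, from RefSeq on GRCh38.p14, are shown with each match on either strand in capitals:
CYP1A1 (chr15:74725529-74725778, minus strand): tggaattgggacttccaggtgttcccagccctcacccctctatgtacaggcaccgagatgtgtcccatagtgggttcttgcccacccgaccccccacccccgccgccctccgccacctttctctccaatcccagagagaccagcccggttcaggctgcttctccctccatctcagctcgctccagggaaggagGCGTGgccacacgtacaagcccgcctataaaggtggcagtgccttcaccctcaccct
AHRR (chr5:321464-321713, plus strand): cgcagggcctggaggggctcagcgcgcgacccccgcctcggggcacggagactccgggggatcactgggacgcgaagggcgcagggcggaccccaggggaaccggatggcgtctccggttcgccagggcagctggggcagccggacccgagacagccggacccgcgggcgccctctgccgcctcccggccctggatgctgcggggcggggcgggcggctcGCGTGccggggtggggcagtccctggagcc
The matches began at -57 in CYP1A1 and -30 in AHRR, counted from the start site. With CYP1A1 and AHRR included, the core was found in 8 of the 13 listed targets with a promoter entry (61.5%). Among them were TIPARP, NFE2L2 and HES1, which were not higher. It occurred in 31.9% of all 27305 promoters of this length and in 45.0% of the 8734 that belong to measured genes. A match of these letters is a description and not a binding site.

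**Figure D3:**
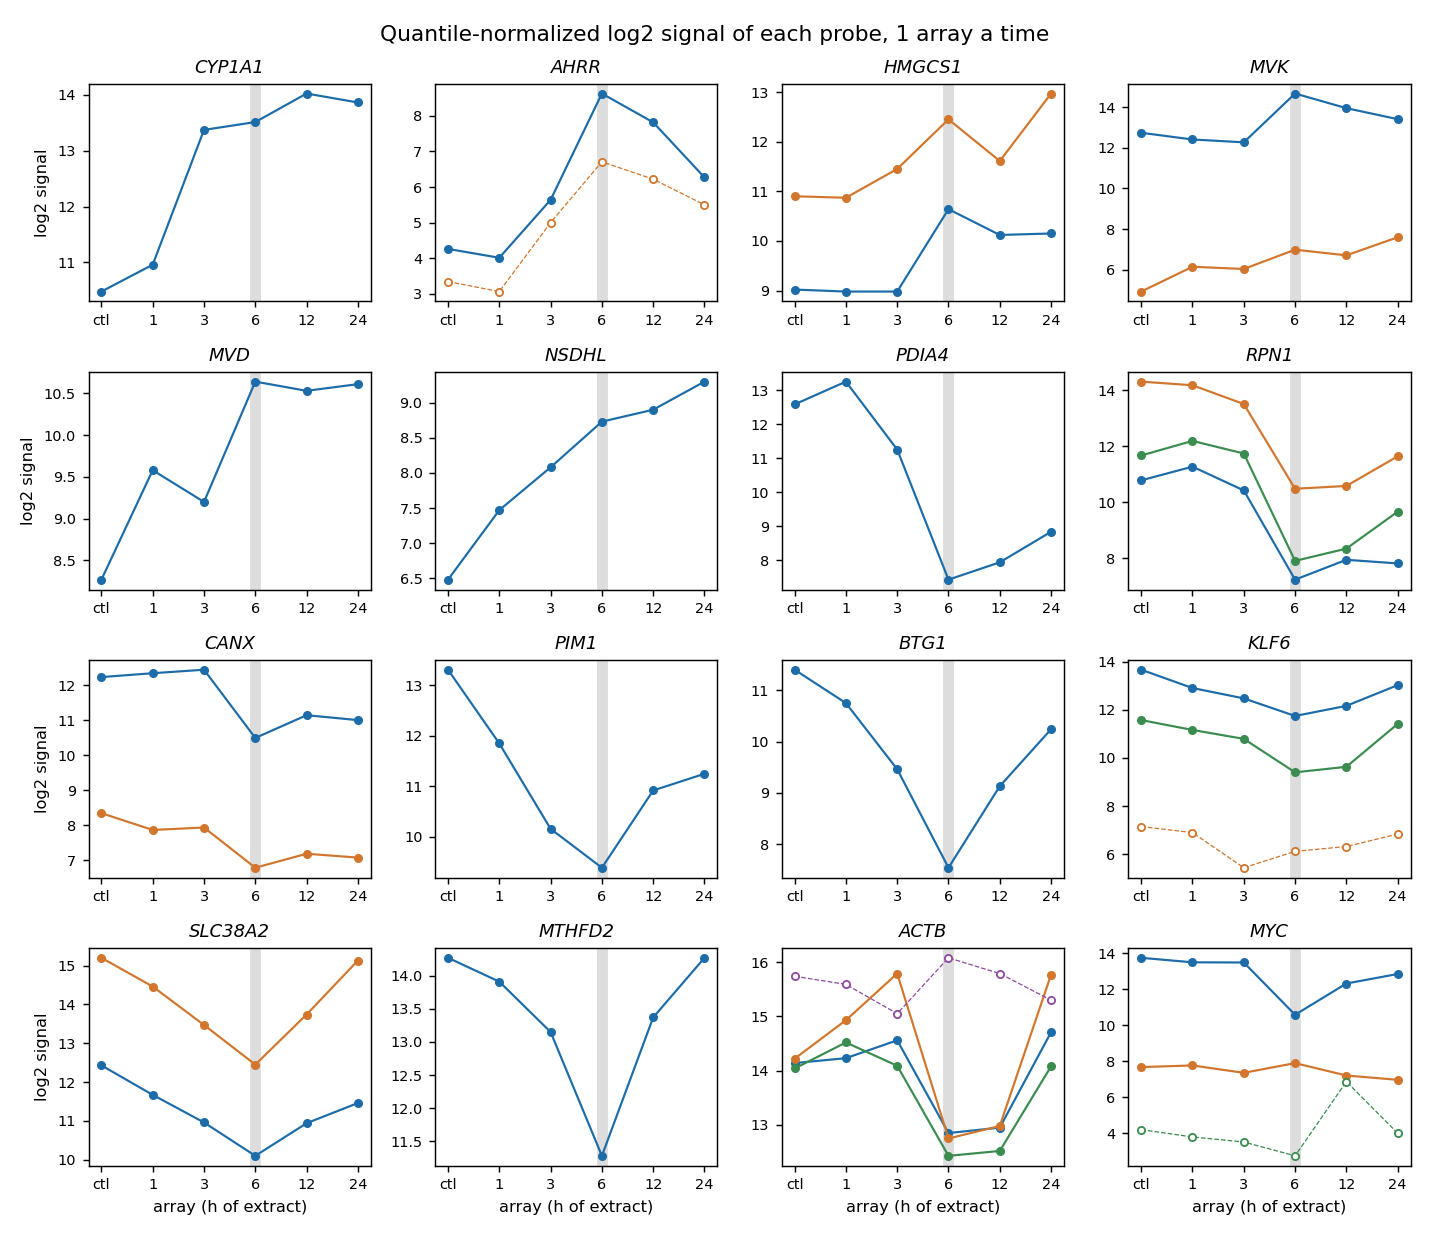
Quantile-normalized log2 signal of each probe (coloured lines) of 16 genes on the control array (ctl) and after 1, 3, 6, 12 and 24 h of extract, 1 array each, with the 6 h array shaded; dashed lines with open points are probes not above background or saturated on the control or 6 h array. CYP1A1 goes from 10.48 to 13.51 at 6 h and PDIA4 from 12.59 to 7.43. The 3 unsaturated ACTB probes are low at 6 h and 12 h, the dimmest arrays, while the saturated one is not.

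Enzymes of the mevalonate and sterol pathway, which builds cholesterol from acetyl units, were higher in 6 of 20 members, 30% against 14.6% of all genes, and lower in 0. The median was 0.71 against 0.15 over all genes, with members below 0 among them. MVK, mevalonate kinase, was higher by both probes, from 12.74 to 14.67 and from 4.93 to 6.99. HMGCS1, the synthase that makes HMG-CoA, likewise went from 10.90 to 12.45 and from 9.02 to 10.64. HMGCS1 thus has 2 probes behind it, whereas the second MVK probe, with a control level under 5.02, could pass only by being higher and adds nothing to the first.

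MVD, mevalonate diphosphate decarboxylase, went from 8.27 to 10.64 (5.16-fold), and NSDHL, a sterol dehydrogenase of the later steps, from 6.48 to 8.73 (4.78-fold), each by its single probe. Of the measured genes of cholesterol uptake and of the SREBP machinery, 0 of 10 were higher and 3 lower (median -0.34). MBTPS1, the protease that cleaves SREBP, was lower by both measured probes (-1.38 and -1.46), and NPC2 and NPC1, which carry cholesterol out of the lysosome, were at -1.66 and -1.24 by single probes. STARD4, a sterol carrier, was at 0.66. A sterol response motif, TCACNCCAC on either strand, was in 0 of the 15 enzyme promoters with an entry and in 0.875% of all promoters of 250 bases, which says only that these letters are not in that window.

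Of 35 proteasome genes 6 were higher and 3 lower, 17.1% and 8.57%, near the 14.6% and 11.6% of all genes, with a median of 0.53. PSMC1, an ATPase of the proteasome cap, was higher by all 3 probes (1.38, 1.29 and 1.43), and PSMC5, another of these ATPases, went from 9.42 to 11.15. On the other side, PSMB3, a subunit of the core, was at -1.79 and PSME4, an activator, at -1.80, each by a single probe.

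Ribosome biogenesis had 7 of 24 genes higher, 29.2%, and 1 lower (median 0.42), led by RRP12, which went from 8.33 to 10.33, RRP9, from 11.32 to 12.98, and NOP16, from 13.69 to 15.21. Mitochondrial ribosomal proteins had 7 of 34 higher, 20.6%, and 1 lower (median 0.52), with MRPL16 at 1.50 and MRPS23 at 1.48, and MRPL19 at -1.33. POLR1C, a subunit of RNA polymerases I and III, was at 1.81, although the RNA polymerase and Mediator list had 3 higher and 2 lower of 29. SURF6, a nucleolar protein, was higher by 1.63, and by 2.50 on a probe that could pass only by being higher.

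Among heat shock proteins 3 of 16 were higher, 18.8% against 14.6% of all genes, and 0 lower. Their median was 0.07 against 0.15 over all genes, and it changed side in 3 of 12 alternative settings. Single members stood out. HSPA1A, the inducible HSP70, went from 7.76 to 9.49 and from 6.12 to 8.36, although a brighter probe, left out for an outlier spot on 1 or more arrays, was at 0.73. HSPA4 (1.46 and 1.30) and HSPH1 (1.07), which recharge HSP70 with ATP, were higher. DNAJB1, a partner of HSP70, was at -0.94, so the family did not move one way.

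NRF2 targets, which defend against oxidants, had 3 of 18 higher, 16.7% against 14.6% of all genes, and 1 lower (median 0.09). HMOX1, haem oxygenase, was higher by 1.11, OSGIN1 by 1.04, and SLC7A11, the cystine carrier, was lower, at -2.71 on its measured probe, with both other probes below background at 6 h. Metallothioneins, small metal-binding proteins, had 2 of 11 higher and 1 lower (median 0.73), with control levels around 14.5 and close copies that a probe may not tell apart. MT1M went from 12.40 to 13.54 and MT1B from 14.46 to 15.45. The list median moved with scaling: relative to all genes it was 0.58 here, 1.72 with scaling to the 75th percentile and 0.30 after adjustment for the GC content of the probes.

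The other genes most raised by agreeing probes belonged to no single list. SPIN2B, a spindlin of the histone-reading family, led with levels of 8.97 to 11.66 and 8.59 to 11.01. PHRF1, a ubiquitin ligase, went from 13.19 to 15.28 and from 8.66 to 10.85, and MPP3, a membrane scaffold, from 8.23 to 10.16 and from 7.16 to 9.37. These 3 were higher by at least 1.93 on every measured probe.

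The cation channel TRPV1 (2.02 and 1.80), the membrane fusion protein STX1A (1.79 and 1.80), the adaptor LAT (2.03 and 1.74), the motor KIF5A (1.64, and 2.47 by a probe that could pass only by being higher) and the diphthamide enzyme DPH7 (2.28 and 1.73) followed. So did the mitochondrial ATPase ATAD3B (1.77 on both), the glutathione transferase GSTT2 (1.98 and 1.68) and the zinc finger genes ZNF33A (1.71 and 1.72) and ZBTB24 (1.71 and 2.13). SPIN2B, HSPA1A, GSTT2 and ATAD3B have near-identical copies in the genome, and their signal may be shared with these. ATG12, which tags membranes for autophagy, was higher by both probes (1.83 and 1.30), and BID, a pro-apoptotic BCL2 relative, by 1.10 and 1.22.

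The lowest difference among genes measured on both arrays was that of PDIA4, a disulfide isomerase that folds secreted proteins in the endoplasmic reticulum, which went from 12.59 in the control to 7.43 at 6 h (35.9-fold lower) by its single probe, whose raw processed signal was 5820 and 35.3 units. It stood at 13.26 and 11.26 at 1 and 3 h and at 7.94 and 8.84 at 12 and 24 h, so the arrays after 3 h were all low. RPN1 by its brightest probe was at 14.18, 13.51, 10.58 and 11.64 on these arrays, and was lower after 3 h too.

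Of 20 genes of the chaperone list 6 were lower, 30% against 11.6% of all genes. Higher were 3, 15% against 14.6%, and the median was -0.40. CANX, calnexin, which holds glycoproteins until they fold, was lower by both probes (12.24 to 10.50 and 8.35 to 6.79). XBP1, a transcription factor of the unfolded protein response, was lower by both too (15.96 to 14.68 and 10.40 to 8.54). In contrast SDF2L1, a partner of BiP, was higher, from 13.97 to 15.79, and DDIT3, a stress-induced factor, was at -0.06.

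Of the 19 chaperone promoters with an entry, 6 (31.6%) held the endoplasmic reticulum stress element, CCAAT followed after 9 bases by CCACG, on either strand. It was in 0.0806% of all promoters of this length and in 0.137% of the 8734 that belong to measured genes. The 250 bases before the start of 3 members that hold it, CANX and HSPA5 of the rule and HSP90B1 (GRP94, at -1.28), picked after its values were seen, are shown with the element in capitals:
CANX (chr5:179698679-179698928, plus strand): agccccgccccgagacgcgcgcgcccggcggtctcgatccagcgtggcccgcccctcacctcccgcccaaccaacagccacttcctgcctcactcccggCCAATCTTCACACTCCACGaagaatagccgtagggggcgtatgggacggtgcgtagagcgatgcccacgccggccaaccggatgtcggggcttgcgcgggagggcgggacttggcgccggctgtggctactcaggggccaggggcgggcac
HSPA5 (chr9:125241344-125241593, minus strand): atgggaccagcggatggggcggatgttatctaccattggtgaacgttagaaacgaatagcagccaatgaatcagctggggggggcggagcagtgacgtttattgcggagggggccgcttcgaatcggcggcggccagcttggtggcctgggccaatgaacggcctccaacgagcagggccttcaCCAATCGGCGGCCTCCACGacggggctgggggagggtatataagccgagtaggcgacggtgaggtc
HSP90B1 (chr12:103930160-103930409, plus strand): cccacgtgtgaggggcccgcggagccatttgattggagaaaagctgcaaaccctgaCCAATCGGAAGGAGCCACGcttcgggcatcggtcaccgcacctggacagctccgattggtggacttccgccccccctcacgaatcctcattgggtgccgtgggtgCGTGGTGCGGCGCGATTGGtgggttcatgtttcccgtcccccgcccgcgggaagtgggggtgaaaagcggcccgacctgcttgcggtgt
The element began at -151 in CANX, at -66 in HSPA5 and at -194 and -89 in HSP90B1. The other holders were CALR at 0.00, CRELD2 at 0.59 and XBP1 at -1.28 by its brighter probe. The value of CRELD2 lies within the error of 0.73 for a single probe. Whether the element goes with the differences was not tested. PDIA4 and SDF2L1, the extremes of the list, had no match in this window.

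Transport out of the reticulum was lower in more members than higher. Of 26 genes of vesicle coats and secretory transport, 10 were lower, 38.5% against 11.6% of all genes, and 3 higher (median -0.56). KDELR2 and KDELR1, receptors that return chaperones from the Golgi, were lower by all their probes (-1.77, -2.98 and -1.25, and -1.38 and -1.80). SEC23A, of the coat of outgoing vesicles, was at -1.04 and -3.07. SEC24B, its partner, went from 9.08 to 7.12 by a single probe.

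Genes of the amino acid response were lower in many members and higher in none. Of 22 listed genes driven by the factor ATF4, 11 were lower, 50% against 11.6% of all genes, and 0 higher, and the median was -0.98. MTHFD2, a mitochondrial folate enzyme, went from 14.27 to 11.28, and SHMT2, which feeds it, from 15.17 to 13.78 and from 12.82 to 11.32. NUPR1, a stress-induced nuclear protein, was at -1.68, whereas ASNS, asparagine synthetase, was at -0.26.

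Amino acid carriers had 7 of 18 lower, 38.9% against 11.6% of all genes, and 1 higher (median -0.81). A further 6 were above background in the control only. SLC38A2, which imports small neutral amino acids, was lower by both probes, from 15.20 to 12.45 and from 12.43 to 10.10. SLC7A1, the arginine and lysine carrier, was at -2.05 and SLC38A1 at -1.93. MTHFD2 stood at 13.91, 13.15, 13.37 and 14.27 on the 1, 3, 12 and 24 h arrays, lowest at 6 h and level with the control at 24 h. GARS1 and IARS1, which charge tRNAs, were at -1.46 and -1.21 and RARS1 at 1.10, within a list of 20 synthetases that had 2 higher and 2 lower. XPOT, which exports tRNA from the nucleus, was lower by both probes (-2.36 and -2.72).

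Of 20 immediate early genes 8 were lower and 1 higher, with a median of -0.79, and of 10 genes of MAP kinase feedback 5 were lower and 2 higher, with a median of -1.10. The lower share was 40% and 50% against 11.6% of all genes. FOS, a subunit of AP-1, went from 9.93 to 7.24, JUND from 15.61 to 13.44 and ZFP36L2, which speeds the decay of transcripts, from 11.97 to 10.01. DUSP1, a phosphatase that switches MAP kinases off, went from 11.71 to 8.97. These are single-probe genes.

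DUSP6 was at -1.41, SPRY1 at -1.88 and SPRY2 at -1.46, all brakes on growth factor signals. KLF6, a zinc finger factor, was lower by both measured probes, from 13.66 to 11.74 and from 11.57 to 9.40, and stood at 12.90, 12.47, 12.16 and 13.02 on the other arrays by the brighter one. Of 8 Krüppel-like factors 4 were lower and 1 higher, and KLF2, the higher one, had a control level of 4.64, where only a higher gene could pass. MYC had probes that disagree: -3.17 by the brightest (13.75 to 10.58), 0.22 by another, and the remaining one was below background at 6 h.

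A short-lived kinase and an arrest gene were over 10-fold lower. PIM1, a kinase induced by cytokines, went from 13.31 to 9.39 (15.1-fold lower), and BTG1, an antiproliferative protein, from 11.40 to 7.54 (14.5-fold lower), each by its single probe. PIM1 stood at 11.85, 10.16, 10.92 and 11.25 on the 1, 3, 12 and 24 h arrays, and BTG1 at 10.75, 9.46, 9.13 and 10.24, so both were lowest at 6 h. PIM2, a relative, was higher, from 8.19 to 10.85.

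Of 18 growth-arrest and FOXO-linked transcripts 9 were lower, 50% against 11.6% of all genes, and 1 higher (median -0.98). CCNG2, a cyclin of arrested cells, was at -2.46 by its measured probe, CDKN1B, the inhibitor p27, at -1.98 and YPEL2 at -2.03. FOXO1 itself was lower by both probes (-1.48 and -1.81), FOXO3 was at -2.26, and PDPK1, the kinase that activates AKT, was at -2.23 and -2.52. In the list from the insulin receptor to FOXO 6 of 16 were lower and 0 higher, and RICTOR, of the kinase complex mTORC2, was at -2.58.

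Hypoxia genes had 7 of 18 lower, 38.9% against 11.6% of all genes, and 0 higher (median -0.96). MXI1, a partner of MAX, was at -2.67, NDRG1 at -1.71 and CA9, a carbonic anhydrase, at -1.34, and BNIP3L, a mitophagy receptor, was lower by both probes (-1.11 and -1.78). Glycolysis, which shares regulators with them, had 0 of 18 higher and 1 lower, SLC2A3, a glucose carrier, at -1.44. BHLHE40, a clock repressor, went from 10.87 to 7.65.

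Of 22 hepatocyte transcription factors 10 were lower, 45.5%, and 3 higher (median -0.91): GATA6 went from 10.04 to 6.62, PROX1 from 10.08 to 7.74, and FOXA1, a pioneer factor, was at -1.14 on both probes. Of 19 measured secreted liver proteins 3 were lower, 15.8% against 11.6% of all genes, and 1 higher (median 0.13), and 6 more were saturated. The difference between these lists was not tested. ALB, albumin, was higher on both measured probes (10.57 to 12.05 and 6.00 to 8.73), while its brightest probe was saturated, at 0.41. On the 1, 3, 12 and 24 h arrays the first measured probe read 9.64, 8.58, 12.46 and 8.52, and the second 5.92, 4.12, 7.55 and 2.51. Both were thus above the control only at 6 h and 12 h, on the dimmest arrays. Of 14 measured apolipoproteins 0 were higher and 0 lower.

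SOX9, a factor of duct and progenitor cells, went from 12.11 to 7.98 (17.5-fold lower) by its single probe. It stood at 11.26, 10.41, 8.86 and 8.55 on the other arrays. ZNRF3, a ligase that removes WNT receptors, was lower by both probes (-2.42 and -2.50), GLUL, glutamine synthetase, was at -2.09 and DKK1, a WNT inhibitor, at -1.35. Of 15 WNT targets 7 were lower, 46.7% against 11.6% of all genes, and 1 higher (median -0.48). TGIF1, a repressor of TGF-beta signals, was at -3.48 and CCN2, a matrix-linked target, at -2.35, in a list where 6 of 13 were lower. INHBB, an activin subunit, was at 2.69, each of these by a single measured probe.

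Splicing factors, histones and the cytoskeleton also held lowered genes with several agreeing probes. HNRNPL, an RNA-binding splicing regulator, was lower by all 3 probes (-3.49, -2.66 and -2.57) and HNRNPH1 by all 3 (-2.01, -1.25 and -3.76). HNRNPK was at -1.05 and -2.43. The list of 33 splicing factors had 7 lower, 21.2% against 11.6% of all genes, and 2 higher, with a median of -0.29.

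PFN1, profilin, which feeds actin filaments, went from 14.09 to 11.46 and from 13.93 to 11.23. ACTB, actin itself, a common reference gene, was lower by 3 probes (-1.30, -1.47 and -1.61), whereas its brightest probe, which was saturated, was at 0.35. KRT8, an epithelial keratin, was lower by both probes (-1.30 and -2.03). GAPDH was saturated in the control, and GUSB, another reference gene, was at 0.65, so the reference genes did not share a level.

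Of 33 replication-dependent histone genes 12 were lower, 36.4% against 11.6% of all genes, and 1 higher (median -0.59). H2AC14 was at -1.79 and -1.97, H3C4 at -1.90 and -1.48 and H2BC5 at -3.19 and -1.09, and the higher one, H4C1, had a control level of 3.91, where only a higher gene could pass. RRM2, which makes the building blocks of DNA, was lower by both probes (-2.33 and -2.04). It was the 1 lower gene among 24 of DNA replication, of which 3 were higher, with CDC6, a licensing factor, at 1.77. In mitosis 5 of 22 were lower, 22.7% against 11.6% of all genes, and 2 higher. NUSAP1 was at -2.59, TPX2 at -1.97, TOP2A at -1.81 and AURKB, the kinase, at 2.23.

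The remaining genes most lowered by agreeing probes were again of mixed function. CMIP, an adaptor of T cell signals, went from 11.66 to 7.99 and from 11.06 to 8.12. ARHGAP17, a GTPase-activating protein, was at -2.80 and -2.60, LYPLA1, which removes palmitate from proteins, at -3.00 and -2.39, and ENC1, an actin-binding protein, at -2.79 and -2.23. GSE1 (-2.39 and -2.26), QRICH1 (-2.03 and -2.12) and ZMYM2 (-2.03 and -2.07), nuclear proteins, completed the 15 most lowered genes, with those described above.

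**Figure D4:**
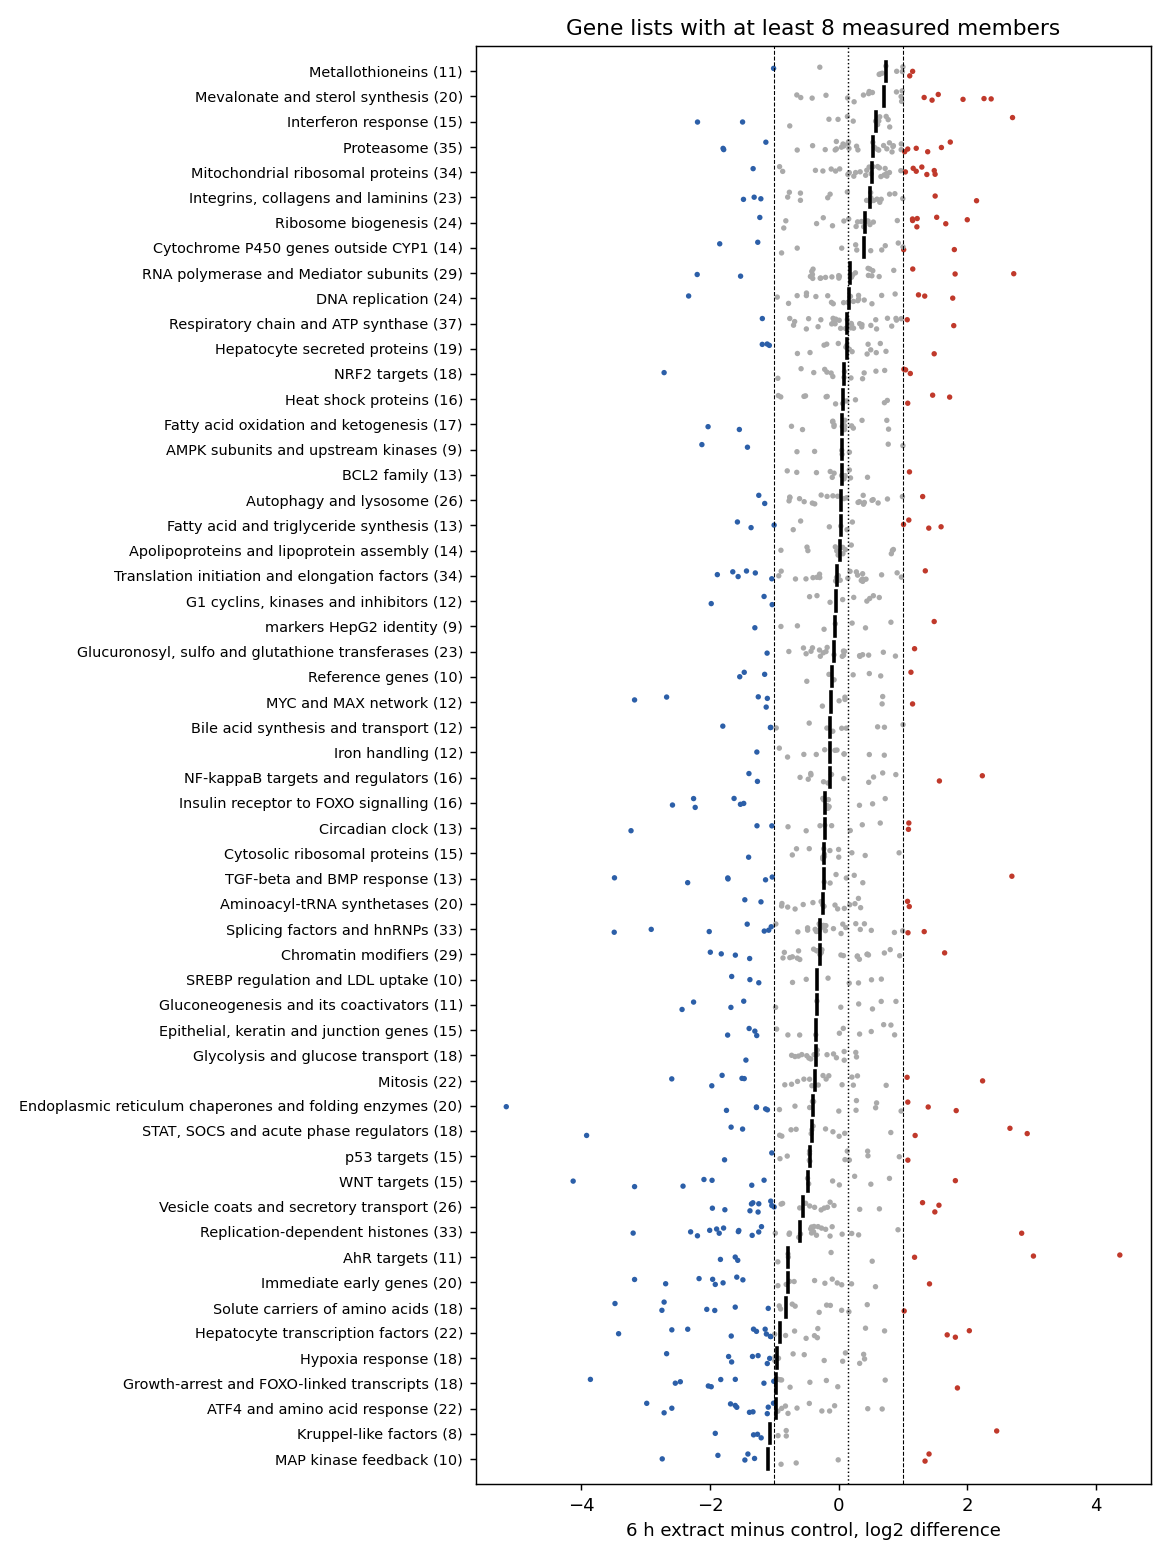
Difference at 6 h (log2) of each measured member (points; red at least 2-fold higher, blue at least 2-fold lower) of the gene lists with at least 8 measured members, ordered by their median (black bar), with the number measured in brackets. The dotted line is the median of all genes, 0.15, and dashed lines mark 2-fold; mevalonate and sterol synthesis (median 0.71) lies near the top and ATF4, growth-arrest and MAP kinase feedback genes (-0.98, -0.98 and -1.10) at the bottom.

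Of the 62 lists, 49 had a median below that of all genes and 13 above it. The listed genes were thus not a sample of all genes, and a median below 0.15 is the usual case among them. Some genes belong to several lists.

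Many genes passed the background limit on a single array. In 2745 genes only the control was above background, and 287 of these had a level at least 2-fold over the 6 h limit. Named after their values were seen, KDM3B, a histone demethylase, was at least 33.9-fold lower by a single probe, POGZ, a zinc finger protein, at least 32.4-fold by the brighter of its 2 probes, IL1RN, the interleukin-1 receptor antagonist, at least 21.0-fold, and SPRED2, another brake on MAP kinases, at least 11.4-fold. These bounds set the control level against the lowest level well above background at 6 h, or the probe's own level there if higher.

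In 84 genes only the 6 h array was above background. Their bounds are all over 2-fold by construction, since the lowest detected level at 6 h, 6.02, lies that far above the 3.64 of the control. Of these, 61 had a single probe, and 56 were above background on no other treated array. DRD1, a dopamine receptor, had a bound of at least 104-fold, ZIM3 of 68.1-fold and DCHS1 of 65.6-fold. Of the 2745 genes seen in the control only, 75 were above background on no other treated array.

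Among measured genes, the 172 genes at least 4-fold higher had a median control level of 5.79, 160 of them had a single probe, and in 77 (44.8%) the 6 h level exceeded those of all 5 other arrays at least 2-fold. MAGEC1 and PAGE4, cancer-testis genes silent in most adult tissue, were of this kind, at 9.16 and 8.59 at 6 h and, at 12 h, 5.77 and 6.11. Their control levels, 4.51 and 4.39, lay under 5.02, where only a higher gene could pass, and with normexp background their differences were 2.51 and 2.14 in place of 4.64 and 4.20. Of the 24 listed cancer-testis genes 4 were measured, 3 of them higher and 0 lower, while 7 were above background in the control only and 9 on neither array. The 274 genes at least 4-fold lower had a median control level of 10.89, and in 65 (23.7%) the 6 h level lay at least 2-fold under all others. Among the 135 genes raised by agreeing probes 2 (1.48%) and among the 125 lowered ones 6 (4.8%) stood so far from the other arrays. The 6 h array was the highest of the 6 for 120 of the raised genes and the lowest for 101 of the lowered ones. All these sets were picked by the 6 h level against the control, so a 6 h level beyond the other arrays was partly set in advance.

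Over all measured genes the 6 h array was the highest of the 6 for 3222 and the lowest for 2486, against 1470 and 1849 for the control.

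Differences also moved with properties of the gene and the probe. Over 5 groups of genes of like size from low to high control level, the median difference was 0.59, 0.13, 0.03, 0.01 and -0.02, and the share at least 2-fold higher went from 31.6% to 6.56%. Part of this trend was set in advance. The lowest group spans 3.91 to 7.99, where genes up to 5.02 could pass only by being higher. Genes under 7.02 could not be called lower, and the control level is itself subtracted in the difference. With probe GC content the median went from -0.16 in the lowest group to 0.42 in the highest. With the length of the gene on the genome it went from 0.32 in the shortest group to -0.18 in the longest. In the group of the longest genes 19.0% were at least 2-fold lower, and in that of the shortest 8.05%.

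The agreeing genes showed the same. The 135 raised genes had a median span of 21311 bases and a median GC content of 45.0% in the brightest probe, and the 125 lowered ones 49652 bases and 41.7%, against 31214 bases and 43.3% over the 3001 genes with several probes. In 2089 genes with probes at least 1000 bases apart, the downstream probe had the higher difference in 43.8%, with a median gap of -0.11. The probes of 21 of the 260 agreeing genes shared at least 20 bases, and are not independent. The part of these properties in the differences was not tested.

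After taking out the median difference of probes of like GC content, the list medians relative to all genes were -1.04 for ATF4 genes (-1.13 before), -0.79 for immediate early genes (-0.94), -1.09 for growth-arrest genes (-1.13) and 0.47 for sterol synthesis (0.56). After the same for gene span they were -1.17, -1.06, -1.22 and 0.44. These 4 lists were on the same side with and without these adjustments, which were chosen after seeing the data. Lists with medians nearer that of all genes changed side with the GC adjustment. They were AMPK genes (-0.10 to 0.23), NRF2 targets (-0.06 to 0.03) and heat shock proteins (-0.08 to 0.06). Fatty acid and triglyceride synthesis (-0.12 to 0.03) and DNA replication (0.01 to -0.01) did so too.

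**Figure D5:**
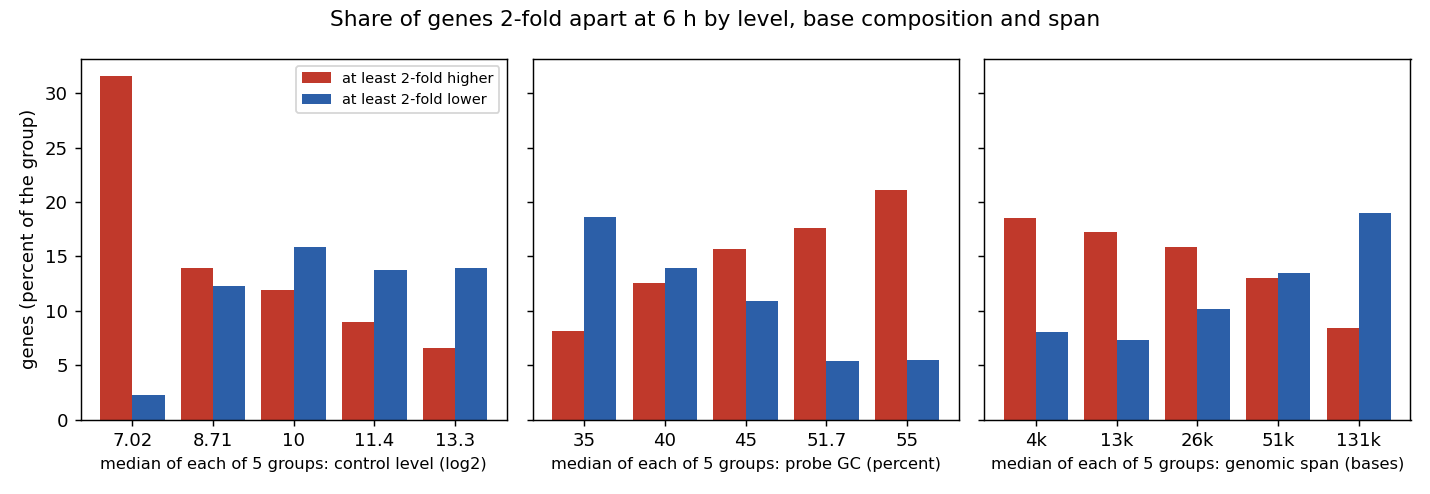
Share of genes at least 2-fold higher (red) and lower (blue) at 6 h, in percent of each of 5 groups of the measured genes cut at quintiles (unequal for GC content, where 1159 to 3138 genes share a group because of ties), by control level (left), GC content of the probe (middle) and length of the gene on the genome (right), each group marked by its median. The share higher falls from 31.6% to 6.56% with control level, and the share lower goes from 8.05% to 19.0% with span. The fall with control level was partly set in advance: genes up to 5.02 could pass only if higher, and those under 7.02 could not be called lower.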

How the data were processed

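Gene expression of HepG2 cells was measured on 6 one-colour Agilent arrays, 1 for the control and 1 each for 1, 3, 6, 12 and 24 h of extract. The scanner output gives spot intensity, per the file headers, with a processed signal already background-corrected by the software. The authors deposited no scaling between arrays in these files, and their deposited value table holds linear intensity too, which equalled median signal minus local background, to 0.51 units, for 99.35% or more of its 35646 probes. The dye is Cy5 per the labels, while all columns are of the green channel. Software version and probe build: not given in the sources used here.

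Control spots and spots flagged as outliers were left out (40895 of 41000 probes kept), spots of a probe were averaged on the log2 scale, and the 6 arrays were quantile normalized with limma 3.58.1 in R 4.3.3. Measured meant well above background and unsaturated on both arrays. Probes were named through accessions, symbols or synonyms of a RefSeq table of GRCh38.p14 (26810 named, 14170 unmatched, 20 with several genes). The brightest measured probe stood for a gene. With 1 array a group no test was made. The same steps were also run on simulated data, which kept the background and saturation flags of the real arrays. That run did not model probes of a gene that disagree, and it does not bear on the detection limit.

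Named genes were the 15 most raised and 15 most lowered by agreeing probes, the 4 or fewer most changed genes of every list (agreeing genes first, then single-probe genes), and a fixed set. Members and lists were chosen with earlier results of these data known. Alternatives changed the normalization, background, source of values, probe rule and filters.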

Additional observations from a re-analysis of the deposited data

How the results depend on the processing

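The counts moved with the filter and the scaling. With scaling to the 75th percentile 2472 genes were higher, 247 of them by agreeing probes. With no filter on dim probes 3093 were higher and 2844 lower, and 227 and 410 by agreeing probes. With normexp background 833 were higher, and 59 higher and 72 lower by agreeing probes. With a raw signal of at least 50 units on both arrays 82 were lower by agreeing probes. The other alternatives, with the GC and gene span adjustments chosen after seeing the data, kept all 4 counts within 1.5 times. ACTB was reversed, at 0.35, when saturated probes were kept, since its brightest probe is then the saturated one. Of the values of named genes, 69 moved by more than the error of 0.73, 34 of them with normexp background, which made 33 of the 34 smaller, 15 with scaling to the 75th percentile and 10 with the authors' deposited values. Relative to all genes, the median of cytosolic ribosomal proteins was 0.54 with scaling to the 75th percentile and -0.37 in the main values. No paired analysis was possible because each group holds 1 array. The cause of the other moves was not tested. Brightness limits the 6 h array: only genes over its lowest detected level, 6.02, could be measured.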
